A study of Rattus norvegicus with 12 samples.

Results

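The endoplasmic reticulum (ER) stress and chaperone genes described here are 10 genes, Hspa5, Hsp90b1, Calr, Pdia4, Dnajb9, Herpud1, Xbp1, Atf6, Ddit3 and Sdf2l1. They were taken by gene symbol from 18483 genes in the deposited matrices of expected counts and FPKM. Of these, 13967 genes passed a filter on low counts, and all 10 were among them. RNA was sequenced from neonatal rat ventricular myocytes (NRVMs), a primary culture of heart muscle cells from newborn Sprague-Dawley rats. Cells received a control siRNA (siNeg) or 1 siRNA duplex against Slc39a2 (siSlc39a2), and 12 h later phenylephrine (PE), an alpha-adrenergic agonist that makes these cells grow, for 36 h or no PE. The time of PE is that of the labels, and the culture methods of the study give a longer one. There were 4 groups, named siNeg and siSlc39a2 without PE and siNeg PE and siSlc39a2 PE with it, and each had 3 biological replicates. Every group was transfected, so the effect of transfection itself was shared by all of them, and the knockdown was transient. Myocytes had been enriched over mesenchymal cells on a Percoll density gradient before plating, a step meant to remove fibroblasts, and were not sorted by a marker.

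Proteins that are secreted or placed in membranes fold in the ER, with the help of chaperones, lectins and enzymes that form disulfide bonds. When unfolded protein builds up there, the sensors PERK, IRE1 and ATF6 start the unfolded protein response, which raises chaperones, speeds the export and breakdown of misfolded protein, and slows translation. ATF6 is cut in the Golgi to release a transcription factor, IRE1 splices the Xbp1 transcript, and PERK acts through ATF4 and Ddit3. In heart muscle cells the response is known from growth stimuli, ischaemia and calcium overload. Counts per gene measure the summed transcripts only, so neither the spliced form of Xbp1 nor the cut form of ATF6 could be seen here.

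Total expected counts were between 24065539 and 28603854 per sample, and the lowest count of any of the 10 genes in a sample was 291. Levels are given as CPM, counts scaled to a common library size after TMM normalization, and changes are log2 fold changes with standard errors from the quasi-likelihood F-test of edgeR, fitted over all 12 samples. Adjusted p is the Benjamini-Hochberg value over all genes tested, and a gene was called at an adjusted p below 0.05. Slc39a2, the gene targeted, had a mean of 2.06 ± 0.229 CPM (SD, n = 3) in siNeg and 0.392 ± 0.324 CPM in siSlc39a2, a log2 fold change of -2.35 (SE 0.46, adjusted p = 9.80e-04). With PE it had 5.71 ± 1.92 CPM after siNeg and 1.13 ± 0.260 CPM after siSlc39a2. Nppb, a natriuretic peptide gene of hypertrophy, rose with PE by 5.19 (SE 0.17, adjusted p = 8.51e-10) on the log2 scale in siNeg cells.

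Levels of cell type markers moved with the groups. The summed level of 6 cardiomyocyte markers was 29125 to 30382 CPM in siNeg, 21557 to 23223 in siNeg PE, 20836 to 21637 in siSlc39a2 alone and 17052 to 17898 in siSlc39a2 PE, so the defining markers of the labelled cell type were abundant in every sample. In each comparison 3 of the 6 were called lower, and 1 was called higher in each PE comparison and none after knockdown. The sum fell mainly through Myh6, with means of 15858 CPM in siNeg, 8199 in siNeg PE, 7407 in siSlc39a2 alone and 3672 in siSlc39a2 PE, while Tnnt2 had 5082, 5218, 5366 and 5770.5 CPM in the same order. The summed level of 8 fibroblast markers was 13859 to 18345 CPM in siNeg, 9171 to 11754 in siNeg PE, 5338 to 5643 in siSlc39a2 alone and 3582 to 4949 in siSlc39a2 PE, and 6 of the 8 were lower and 1 was higher after knockdown, without and with PE. The collagens Col1a1, Col1a2 and Col3a1 made up most of this sum, and Pdgfra (41.1 CPM in siNeg and 44.7 in siSlc39a2) and Tcf21 (27.4 and 34.7) were not lower after knockdown without PE. The 4 smooth muscle markers summed to 1928 to 1984, 1183 to 1533, 752 to 761 and 1249.7 to 1370.2 CPM in the same order. Markers of endothelial cells (5 genes), macrophages (4 of 5 listed, without Cd163, which was not analysed here) and red cells (3) summed to at most 20.4, 20.2 and 0.982 CPM, and Alas2 had at most 1 count in a sample. In bulk RNA, fewer cells of a type and less RNA per cell cannot be told apart. The part of these shifts in the changes below was not tested.

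Promoter sequence is shown first because several of the 10 genes carry the DNA elements through which the unfolded protein response is known to act. Of the 10 genes, 9 had a promoter entry (RefSeq, build GRCr8, 250 bases before to 50 bases after the start) and Atf6 did not. Both strands were searched for the ER stress response element (ERSE, CCAAT and CCACG with 9 bases of any kind between them), the shorter form ERSE-II (ATTGG and CCACG with 1 base of any kind between them), the unfolded protein response element (UPRE) and the C/EBP-ATF response element (CARE). These patterns are textbook consensus forms, not taken from the deposited data. Read on the other strand UPRE begins with CCACG, the last letters of both ERSE forms, so it can overlap them. ERSE was found in 22 (0.0657%), ERSE-II in 17 (0.0508%), UPRE in 199 (0.595%) and CARE in 1332 (3.98%) of 33469 promoters of 300 bases. Among the 9 genes, Hspa5, Hsp90b1, Calr and Xbp1 held ERSE, Herpud1 held ERSE-II and CARE, and Pdia4, Dnajb9, Ddit3 and Sdf2l1 held none of the 4 elements in this window.

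Each window below is written 5′ to 3′ on the strand of its gene, with the element in capitals, up to 20 bases on each side, and the element's position counted in bases from the start of the gene, negative before it. A match of letters is a description of the sequence and not of a bound factor.
Hspa5 (chr3:38452953-38453011, plus strand), ERSE at -43 to -25: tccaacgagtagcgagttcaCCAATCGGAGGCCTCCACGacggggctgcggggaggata
Hsp90b1 (chr7:23012431-23012489, minus strand), ERSE at -176 to -158: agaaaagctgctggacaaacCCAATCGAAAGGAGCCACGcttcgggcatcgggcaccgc
Hsp90b1 (chr7:23012327-23012385, minus strand), ERSE on the other strand at -72 to -54: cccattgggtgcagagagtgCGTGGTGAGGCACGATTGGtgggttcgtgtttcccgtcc
Calr (chr19:40213117-40213173, plus strand), ERSE on the other strand at -232 to -214: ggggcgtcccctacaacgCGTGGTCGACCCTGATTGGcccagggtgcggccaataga
Xbp1 (chr14:84604538-84604596, plus strand), ERSE at -65 to -47: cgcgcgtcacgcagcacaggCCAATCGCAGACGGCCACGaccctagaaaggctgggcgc
Herpud1 (chr19:10614801-10614851, minus strand), ERSE-II at -124 to -114: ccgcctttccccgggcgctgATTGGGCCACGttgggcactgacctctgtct
Herpud1 (chr19:10614864-10614911, minus strand), CARE on the other strand at -184 to -177: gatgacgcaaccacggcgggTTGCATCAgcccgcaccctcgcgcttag

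Compared per length, as FPKM, the genes covered a wide range of levels. In siNeg cells Calr was highest with 572 ± 22.4 FPKM (SD, n = 3), followed by Herpud1 with 207 ± 11.4, Hspa5 with 190.2 ± 8.09, Xbp1 with 110.1 ± 2.39, Pdia4 with 74.7 ± 5.23 and Hsp90b1 with 72.1 ± 9.39. Below these came Ddit3 with 61.3 ± 7.25, Sdf2l1 with 33.4 ± 1.20, Atf6 with 8.82 ± 1.76 and Dnajb9 with 6.32 ± 0.636 FPKM. The FPKM of Pdia4 and Hsp90b1 differed by less than the spread between samples. In siSlc39a2 PE cells the order of the FPKM levels changed, with Hspa5 (491 ± 40.6 FPKM) and Hsp90b1 (231 ± 65.9 FPKM) above Herpud1 (99.7 ± 8.91 FPKM). Calr remained the highest of the 10 in every group.

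**Figure D1:**
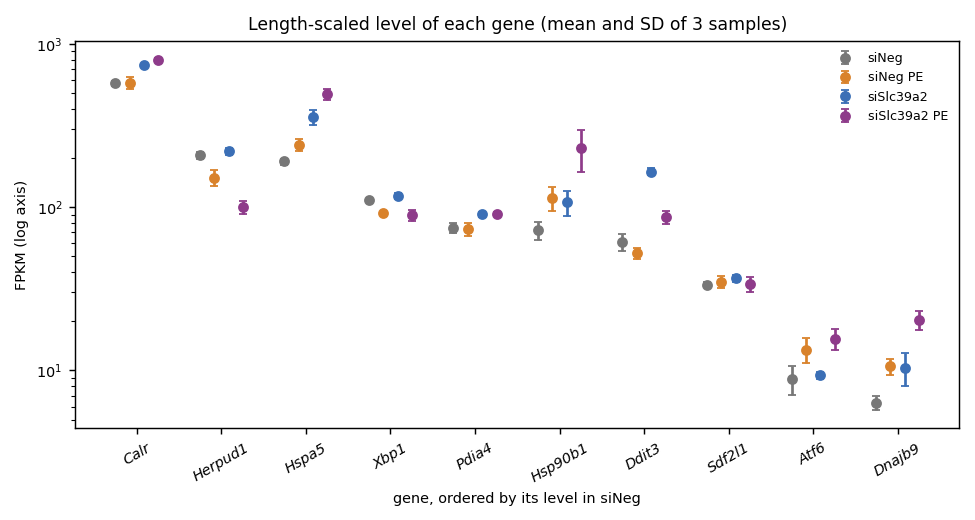
Mean FPKM (log axis) of each gene in the 4 groups, with bars of 1 SD over 3 samples and the genes ordered by their level in siNeg. Calr is at the top in every group, Dnajb9 and Atf6 are lowest, and Hspa5 and Herpud1 change places between siNeg and siSlc39a2 PE.

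Together the 10 genes took 0.249 to 0.259% of the counts in siNeg, 0.250 to 0.287% in siNeg PE, 0.343 to 0.364% in siSlc39a2 alone and 0.383 to 0.426% in siSlc39a2 PE. Hspa5 and Calr made up 57.8 to 67.0% of these counts, so the sum mainly follows these genes. Summed CPM were 2695 ± 7.51 in siNeg, 2693 ± 155 in siNeg PE, 3352 ± 59.0 in siSlc39a2 alone and 3989 ± 221 in siSlc39a2 PE. The ranges of siNeg and siNeg PE overlapped, and those of the knockdown groups lay above both.

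Hspa5 (gene ID 25617) encodes BiP, the main ER chaperone, which binds unfolded chains and holds the stress sensors inactive. It was at 489, 515 and 487 CPM in siNeg replicates 1, 2 and 3, at 557, 578 and 647 CPM in siNeg PE, at 807, 788 and 920.0 CPM in siSlc39a2 alone, and at 1129.7, 1174 and 1314 CPM in siSlc39a2 PE. No group overlapped another, and each of the 3 neighbouring pairs in this order passed the test. Hspa5 rose after knockdown by 0.75 (SE 0.08, adjusted p = 7.91e-06) on the log2 scale without PE and by 1.02 (SE 0.08, adjusted p = 4.69e-07) with PE. PE raised it by 0.26 (SE 0.08, adjusted p = 0.0189) in control cells and by 0.52 (SE 0.08, adjusted p = 1.61e-04) after knockdown. The PE change in control cells had an adjusted p of 0.0508 without siNeg replicate 1, 0.0508 without siNeg replicate 3 and 0.0897 without siNeg PE replicate 3.

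Hsp90b1 (gene ID 362862) encodes the ER member of the HSP90 chaperones, which completes the folding of integrins, Toll-like receptors and other clients. Its CPM in replicates 1, 2 and 3 were 181, 227 and 211 in siNeg, 259, 319 and 353 in siNeg PE, 252, 251 and 327 in siSlc39a2 alone, and 476, 573 and 817 in siSlc39a2 PE. The samples of siSlc39a2 PE were above all others but spread widely, with a coefficient of variation of 28.3%, and siNeg PE and siSlc39a2 overlapped. Knockdown with PE raised Hsp90b1 by 1.00 (SE 0.18, adjusted p = 4.49e-04) on the log2 scale, and PE after knockdown raised it by 1.17 (SE 0.18, adjusted p = 1.66e-04). With siNeg the PE change was 0.59 (SE 0.18, adjusted p = 0.0169), and its adjusted p was 0.0664 without siNeg replicate 1 and 0.0714 without siNeg PE replicate 3. Knockdown without PE gave 0.42 (95% confidence interval 0.03 to 0.81, adjusted p = 0.0688), which was not called. It was called in 6 of the alternatives, among them DESeq2 (adjusted p = 0.0314) and edgeR with no filter on low counts (adjusted p = 0.0362), on the 2 groups alone (adjusted p = 0.00789), and without siSlc39a2 PE replicate 1 (adjusted p = 0.0229) or 3 (adjusted p = 0.0188).

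Calr (gene ID 64202) encodes calreticulin, a lectin chaperone that also stores calcium in the ER. It had 1063, 1055 and 1099 CPM in siNeg, 950.3, 1021 and 1097 CPM in siNeg PE, 1275, 1261 and 1216 CPM in siSlc39a2 alone, and 1433, 1408 and 1347 CPM in siSlc39a2 PE. All 6 knockdown samples were above all 6 control samples, while siNeg and siNeg PE overlapped. Knockdown raised Calr by 0.22 (SE 0.06, adjusted p = 0.00872) without PE and by 0.45 (SE 0.06, adjusted p = 5.20e-05) with PE on the log2 scale. PE gave -0.07 (95% interval -0.20 to 0.06, adjusted p = 0.363) in control cells and 0.16 (SE 0.06, adjusted p = 0.0376) after knockdown. The call of PE after knockdown was lost with RLE size factors (adjusted p = 0.0623), with no filter on low counts (adjusted p = 0.105), and in 7 of 12 fits that left out a sample, namely siNeg replicate 2, siNeg PE replicate 2, siSlc39a2 PE replicate 1 or 2, or any siSlc39a2 replicate, with the highest adjusted p of 0.193 without siSlc39a2 replicate 3.

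Pdia4 (gene ID 116598) encodes a protein disulfide isomerase of the ER. It was at 167, 179 and 183 CPM in siNeg, at 154, 160.0 and 180.1 CPM in siNeg PE, at 188, 196 and 198 CPM in siSlc39a2 alone, and at 201, 198 and 207 CPM in siSlc39a2 PE. The 6 knockdown samples were above the 6 control samples by a small margin. Pdia4 was called in 1 of the 4 comparisons, higher after knockdown with PE by 0.30 (SE 0.07, adjusted p = 0.00205), while knockdown without PE gave 0.14 (95% interval -0.01 to 0.28, adjusted p = 0.106). The change without PE was called by edgeR with a replicate block (0.14, adjusted p = 0.0314).

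Sdf2l1 (gene ID 680945), an ER protein that joins chaperone complexes with BiP and its co-chaperones, was nearly flat. Its CPM were 35.9, 32.8 and 34.4 in siNeg, 31.1, 35.0 and 35.0 in siNeg PE, 32.5, 35.0 and 34.9 in siSlc39a2 alone, and 37.0, 30.6 and 30.7 in siSlc39a2 PE. Every group overlapped every other, and over all 12 samples the log2 CPM spanned 0.27, the narrowest range of the 10 genes. Its 4 log2 fold changes lay between -0.06 and -0.01, none was called, and the 95% interval for knockdown with PE was -0.23 to 0.15.

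Dnajb9 (gene ID 24908), a DnaJ co-chaperone that BiP uses to reach misfolded clients and the IRE1 sensor, was the least abundant of the 10 genes per length in siNeg and siNeg PE, and in siSlc39a2 and siSlc39a2 PE its FPKM (10.4 and 20.4) were above those of Atf6 (9.33 and 15.6). It had 11.7, 13.6 and 11.5 CPM in siNeg, 17.6, 19.1 and 21.5 CPM in siNeg PE, 16.0, 15.9 and 22.8 CPM in siSlc39a2 alone, and 31.8, 38.4 and 41.6 CPM in siSlc39a2 PE. The siNeg samples were lowest and the siSlc39a2 PE samples highest, without overlap, and the other groups lay between them and overlapped each other. Dnajb9 rose in all 4 comparisons: by 0.57 (SE 0.15, adjusted p = 0.00699) with knockdown alone, by 0.66 (SE 0.15, adjusted p = 0.00320) with PE alone, by 0.94 (SE 0.14, adjusted p = 1.36e-04) with knockdown under PE, and by 1.03 (SE 0.14, adjusted p = 7.72e-05) with PE after knockdown. Between siNeg and siSlc39a2 PE it rose 3.04-fold.

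**Figure D2:**
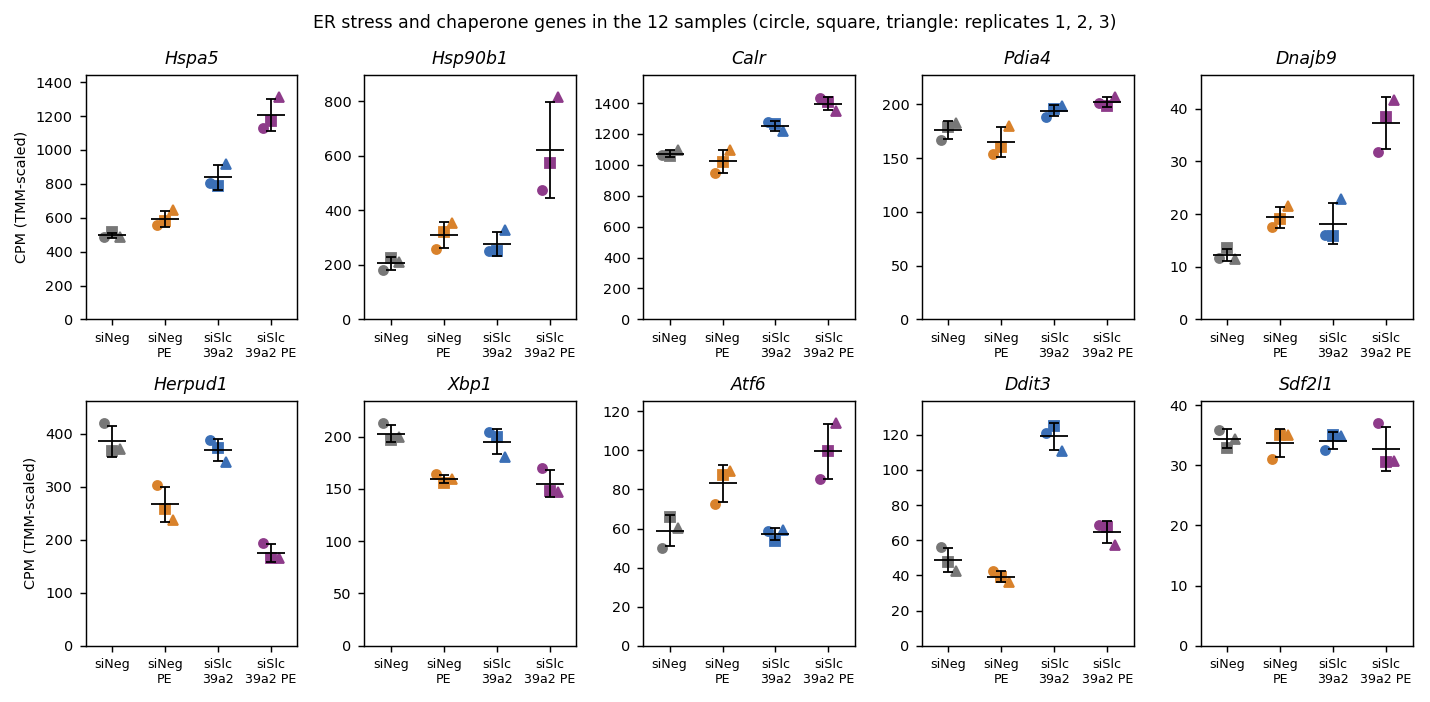
CPM (TMM-scaled, linear axes from 0) of each of the 10 genes in the 12 samples, with the replicate number given by the symbol and black bars for the mean and 1 SD of 3 samples. Hspa5 rises over the groups without overlap from 487 to 1314 CPM, Herpud1 and Xbp1 are lower in both PE groups, Ddit3 is highest in siSlc39a2 without PE, and Sdf2l1 is flat.

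Herpud1 (gene ID 85430) encodes a membrane protein of the ER-associated degradation machinery and is a known target of both ATF6 and ATF4. Its CPM were 420.4, 367 and 371 in siNeg, 303, 259 and 238 in siNeg PE, 388, 374 and 347 in siSlc39a2 alone, and 194, 165 and 166 in siSlc39a2 PE. The groups without PE overlapped each other, siNeg PE lay below both, and siSlc39a2 PE lay lowest, without overlap. Without PE the knockdown change was -0.06 (95% interval -0.27 to 0.14, adjusted p = 0.601). Herpud1 fell with PE by 0.53 (SE 0.10, adjusted p = 7.37e-04) in control cells and by 1.08 (SE 0.10, adjusted p = 2.10e-06) after knockdown on the log2 scale. With PE it fell by 34.4% after knockdown, a log2 fold change of -0.61 (SE 0.10, adjusted p = 1.70e-04).

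Herpud1 and the chaperones Hspa5 and Hsp90b1 moved in opposite directions with PE, and the promoters of all of them hold forms of ERSE. Their log2 fold changes with PE in control cells were -0.53, 0.26 and 0.59. The comparison given next joins knockdown and PE, so its values are not effects of PE alone. In siSlc39a2 PE against siNeg, Hspa5, with ERSE, rose 2.43-fold and Hsp90b1, with a pair of ERSE, rose 3.01-fold, whereas Herpud1, with ERSE-II and CARE, fell by 54.7% and Xbp1, with ERSE, fell by 23.8%. Calr, with ERSE, rose 1.30-fold. Of the genes with none of the 4 elements in the window, Dnajb9 rose 3.04-fold, Ddit3 1.32-fold and Pdia4 1.14-fold, and Sdf2l1 was not called (log2 fold change -0.07). With PE itself Ddit3 fell, by log2 fold changes of -0.32 in control cells and -0.88 after knockdown. Calr was not called with PE in control cells (-0.07).

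Xbp1 (gene ID 289754) encodes the transcription factor that IRE1 activates by splicing. It had 213, 197 and 199.8 CPM in siNeg, 164, 156 and 159.8 CPM in siNeg PE, 204, 199.7 and 181 CPM in siSlc39a2 alone, and 169.9, 148 and 147 CPM in siSlc39a2 PE. Samples with PE were all below samples without PE, and the siRNA groups overlapped in each condition. The summed Xbp1 transcripts fell by 21.4% with PE in control cells (log2 fold change -0.35, SE 0.07, adjusted p = 0.00158) and fell by 20.7% after knockdown (log2 fold change -0.33, SE 0.07, adjusted p = 0.00132). The knockdown changes were -0.06 (95% interval -0.21 to 0.09) without PE and -0.05 (95% interval -0.20 to 0.11) with PE, and neither was called.

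Atf6 (gene ID 304962) encodes the sensor that is cut to give a transcription factor for chaperone genes. Its level was 50.2, 65.8 and 60.3 CPM in siNeg, 72.5, 87.5 and 89.7 CPM in siNeg PE, 58.8, 53.8 and 59.0 CPM in siSlc39a2 alone, and 85.5, 99.7 and 114 CPM in siSlc39a2 PE. All samples with PE were above all samples without PE. PE raised Atf6 by 0.50 (SE 0.12, adjusted p = 0.00462) in control cells and by 0.80 (SE 0.12, adjusted p = 1.34e-04) after knockdown. Knockdown under PE gave 0.26 (95% interval 0.00 to 0.52, adjusted p = 0.0791), with overlapping groups, and was not called. This change was called by edgeR with a replicate block (0.26, adjusted p = 0.0215) and without siSlc39a2 PE replicate 1 (0.35, adjusted p = 0.0208). Knockdown without PE gave -0.04 (95% interval -0.30 to 0.22, adjusted p = 0.808).

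Ddit3 (gene ID 29467) encodes CHOP, the transcription factor of prolonged ER stress that lies downstream of PERK and ATF4. It had 56.1, 47.7 and 42.6 CPM in siNeg, 42.3, 38.9 and 36.0 CPM in siNeg PE, 121, 125 and 110.5 CPM in siSlc39a2 alone, and 68.8, 67.4 and 57.4 CPM in siSlc39a2 PE. Expected counts of Ddit3 were not whole in 2 of the 12 samples (1421.41 in siNeg replicate 1 and 1953.12 in siSlc39a2 PE replicate 2). Some of its reads there were thus shared with another gene or genes. How many were shared cannot be read from these counts, and to that extent its values are less certain than those of the other 9 genes. No group overlapped another, although the lowest siNeg sample was only just above the highest siNeg PE sample. Knockdown raised Ddit3 2.44-fold without PE (log2 fold change 1.29, SE 0.11, adjusted p = 6.71e-07) and 1.65-fold with PE (log2 fold change 0.72, SE 0.11, adjusted p = 9.90e-05). PE lowered it by 0.88 (SE 0.10, adjusted p = 2.17e-05 by edgeR) on the log2 scale after knockdown. In control cells the PE change was -0.32 (SE 0.11, adjusted p = 0.0248), and it was not called by limma on log2(FPKM + 1) (adjusted p = 0.0829) or log2(FPKM + 0.1) (adjusted p = 0.104), or without siNeg replicate 1 (adjusted p = 0.122), siNeg PE replicate 2 (adjusted p = 0.0651) or siNeg PE replicate 3 (adjusted p = 0.101). It was the only one of the 10 genes with its highest level in siSlc39a2 without PE.

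Across the set, siSlc39a2 PE was the highest group for 6 genes (Hspa5, Hsp90b1, Calr, Pdia4, Dnajb9 and Atf6), siNeg for 3 (Herpud1, Xbp1 and Sdf2l1) and siSlc39a2 for 1 (Ddit3). With the 4 groups put in order for each gene, 15 of 30 neighbouring pairs passed the test. Hspa5 and Ddit3 passed for all 3 pairs, and Pdia4 and Sdf2l1 for none. Neither the highest groups nor the neighbouring pairs were counted over all genes tested, so these counts describe the set only. In the 4 comparisons, 22.8 to 30.7% of all genes tested were called higher and 25.7 to 29.3% lower. Whether the set differed from other genes in these counts was not tested. For Calr, the pair of siNeg and siNeg PE did not differ beyond the spread, and for Hsp90b1 and Dnajb9 siNeg PE and siSlc39a2 did not. The other undecided neighbours were siSlc39a2 and siNeg of Hsp90b1, siNeg and siSlc39a2 of Herpud1, Xbp1 and Atf6, and the PE groups of Xbp1 and Atf6.

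With 1 siRNA duplex, effects of lower Slc39a2 cannot be told apart from other effects of the duplex. The comparison of siSlc39a2 with siNeg asked how cells without PE differed after knockdown. Here 4 of the 10 genes rose (Hspa5, Calr, Dnajb9 and Ddit3), none fell, and 6 were not called, against 22.8% higher and 26.4% lower of all genes tested. Ddit3 was the gene called past an absolute log2 fold change of 1, which 9.78% of all genes tested were. The median log2 fold change was 0.18 over the 10 genes and -0.02 over all genes tested. In this comparison the summed fibroblast markers fell from at least 13859 to at most 5643 CPM, and their part in the result was not tested.

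PE in control cells (siNeg PE against siNeg) raised 4 of the 10 genes (Hspa5, Hsp90b1, Dnajb9 and Atf6) and lowered 3 (Herpud1, Xbp1 and Ddit3). Of all genes tested, 24.0% were called higher and 25.7% lower. None of the 10 was past a log2 fold change of 1, which 6.60% of all genes were, and the median log2 fold change was -0.05 against -0.01 over all genes. The count of 7 called fell to 4 without siNeg replicate 1 and to 4 without siNeg PE replicate 3. The changes of Dnajb9, Atf6, Herpud1 and Xbp1 were called under all 19 alternatives that gave this comparison.

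Knockdown under PE (siSlc39a2 PE against siNeg PE) raised 6 of the 10 genes, namely Hspa5, Hsp90b1, Calr, Pdia4, Dnajb9 and Ddit3, and lowered Herpud1. Of all genes tested, 29.2% were called higher and 28.1% lower, and the median log2 fold change was 0.37 over the 10 genes against 0.01 over all. Hspa5 and Hsp90b1 were the 2 genes called past a log2 fold change of 1, where 11.6% of all genes were, and both lay close to that line. The count past the line was 0 without siNeg PE replicate 1 or without siSlc39a2 PE replicate 3. Fibroblast markers summed to 9171 to 11754 CPM in siNeg PE and 3582 to 4949 CPM in siSlc39a2 PE, and their part was not tested.

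PE after knockdown (siSlc39a2 PE against siSlc39a2) raised Hspa5, Hsp90b1, Calr, Dnajb9 and Atf6 and lowered Herpud1, Xbp1 and Ddit3, which left Pdia4 and Sdf2l1 not called. Of all genes tested, 30.7% were called higher and 29.3% lower. Past a log2 fold change of 1 were 3 of the 10 genes (Hsp90b1, Dnajb9 and Herpud1) and 10.5% of all genes, and the count was 1 without siSlc39a2 PE replicate 3. The median log2 fold change was 0.11 over the 10 genes and 0.01 over all.

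**Figure D3:**
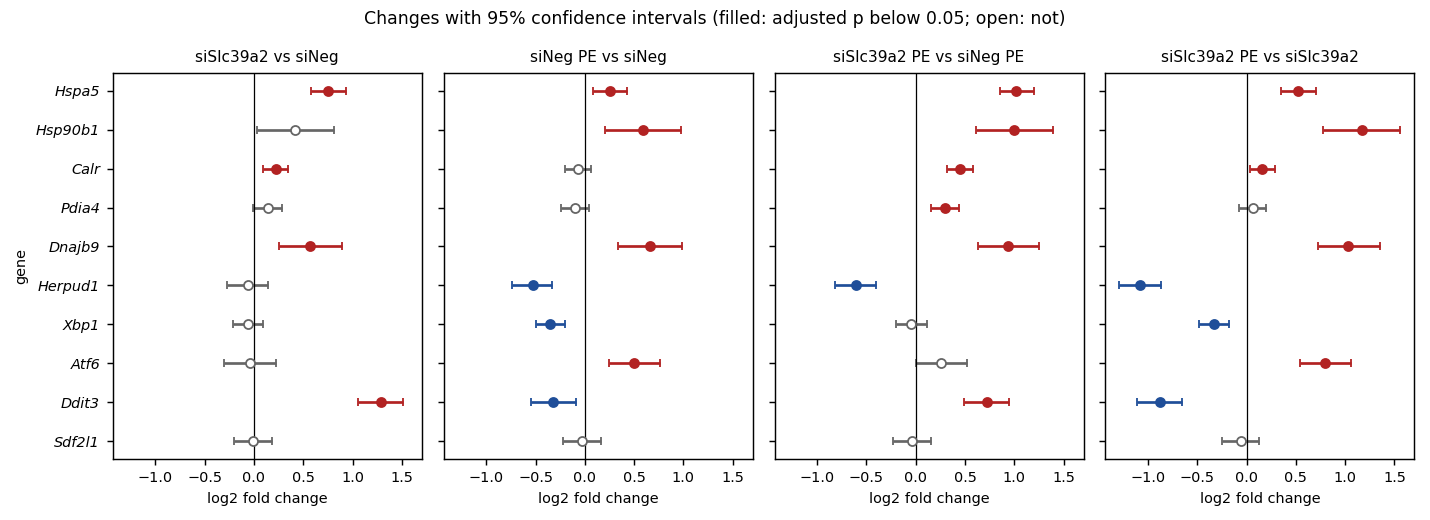
Log2 fold changes of the 10 genes in the 4 comparisons, with 95% confidence intervals from edgeR. Filled points passed an adjusted p of 0.05 (red higher, blue lower) and open points did not. Knockdown with PE moves 6 genes up and Herpud1 down, and the PE comparisons share rises of Hspa5, Hsp90b1, Dnajb9 and Atf6 and falls of Herpud1, Xbp1 and Ddit3.

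The PE comparisons use separate samples, and their difference, which equals the knockdown effect with PE less that without PE, was tested as an interaction. Herpud1 alone was called, lower by 0.54 (SE 0.14, adjusted p = 0.0447) on the log2 scale, so its fall with PE was larger after knockdown. Among all genes tested, 1.73% had an interaction called higher and 1.88% lower. The interaction of Herpud1 was lost in 8 of the 12 fits that left out a sample. These were without siNeg replicate 2 or 3, siNeg PE replicate 1 or 2, siSlc39a2 PE replicate 2 or 3, or siSlc39a2 replicate 1 or 2. In these 8 fits its adjusted p was up to 0.123, with log2 values from -0.57 to -0.44.

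Ddit3 had an interaction of -0.56 (SE 0.15, adjusted p = 0.0589), not called in edgeR and called in 8 of the alternatives, among them DESeq2 (adjusted p = 0.00894). Its adjusted p over all alternatives ran from 0.00257 to 0.145. Among the chaperones the interactions were 0.27 (95% interval 0.02 to 0.51, adjusted p = 0.271) for Hspa5, 0.58 (95% interval 0.03 to 1.13, adjusted p = 0.280) for Hsp90b1 and 0.23 (95% interval 0.04 to 0.41, adjusted p = 0.205) for Calr, with 0.16 for Pdia4 and -0.03 for Sdf2l1, and none of these was called. Of the 10 genes, Herpud1 alone thus passed the adjustment, where 1.73% of all genes tested were called higher and 1.88% lower. The intervals of Dnajb9 (-0.08 to 0.82) and Atf6 (-0.07 to 0.66) include both no difference and a sizeable one.

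**Figure D4:**
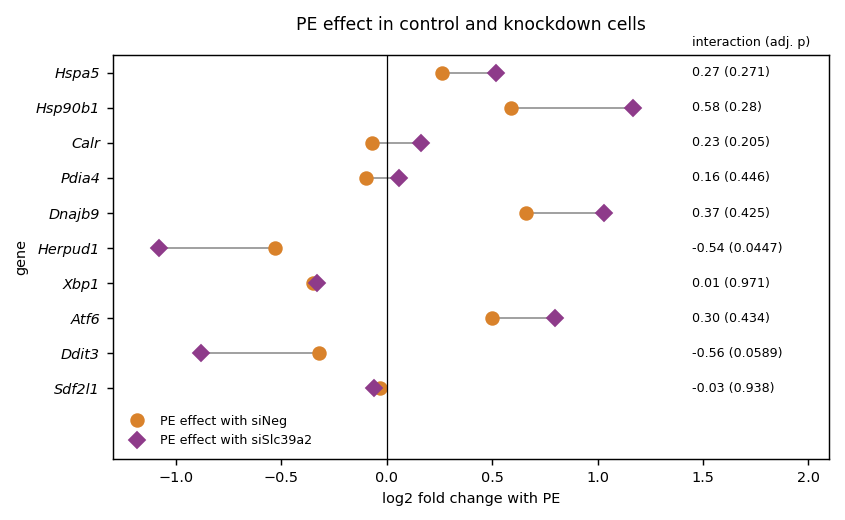
Log2 fold change with PE of each gene in control cells (circles) and after knockdown (diamonds), with the interaction and its adjusted p from edgeR printed at the right. The gap is called for Herpud1 (-0.54, adjusted p = 0.0447), is of like size for Ddit3 and Hsp90b1 without being called, and is near 0 for Xbp1 and Sdf2l1.

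The wider pathway was followed in 5 lists with 131 further genes, of which 130 were tested. Among 31 further ER chaperones and folding enzymes, knockdown without PE raised 6 and lowered 12, against 22.8% and 26.4% of all genes tested, and knockdown with PE raised 10 and lowered 11, against 29.2% and 28.1%. Dnajc3, a BiP co-chaperone that also inhibits PERK, rose without PE from 27.5 ± 0.870 to 42.1 ± 5.38 CPM (log2 fold change 0.61, adjusted p = 4.13e-04) and under PE from 41.7 ± 2.97 to 72.4 ± 8.82 CPM (0.80, adjusted p = 3.97e-05). Ero1a, the oxidase that recharges disulfide isomerases, rose from 24.6 ± 0.376 to 32.6 ± 0.944 CPM (0.41, adjusted p = 7.19e-04) without PE. The falls were larger: Fkbp10, a prolyl isomerase for collagen, fell from 191 ± 9.67 to 64.6 ± 2.45 CPM (-1.56, adjusted p = 3.36e-09) and Txndc5, a thioredoxin-like disulfide isomerase, from 404 ± 5.87 to 200.1 ± 9.30 CPM (-1.01, adjusted p = 1.44e-08). Under PE the log2 fold changes of knockdown were -1.23 (adjusted p = 3.86e-08) for Fkbp10 and -0.83 (adjusted p = 1.04e-07) for Txndc5. The summed fibroblast markers fell in the same comparisons, and their part was not tested.

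PE raised 9 and lowered 10 of these 31 genes in control cells, close to the 24.0% and 25.7% of all genes tested, and raised 12 and lowered 6 after knockdown, against 30.7% and 29.3%. In control cells Ero1b had 3.43 ± 0.482 CPM without and 6.61 ± 0.628 CPM with PE (log2 fold change 0.94, adjusted p = 0.00199), and Ero1a rose by 0.66 (adjusted p = 2.87e-05). Txndc5 (-0.41, adjusted p = 1.18e-04) and Gcs1, the glucosidase that starts glycan trimming (-0.75, adjusted p = 0.00635), fell. After knockdown PE raised Dnajc10, an ER reductase, from 35.3 ± 5.15 to 78.2 ± 18.4 CPM (1.15, adjusted p = 4.58e-05) and Canx, the membrane-bound relative of calreticulin, from 423 ± 64.3 to 915 ± 187 CPM (1.11, adjusted p = 2.86e-05). Hyou1, a large ER chaperone that exchanges nucleotide on BiP, fell from 442 ± 16.6 to 331 ± 13.4 CPM (-0.42, adjusted p = 5.58e-05), and Cnpy2 fell by 0.37 (log2 fold change -0.37, adjusted p = 0.00429). These changes were also called with PE in control cells, at 0.65 for Dnajc10, 0.65 for Canx, -0.38 for Hyou1 and -0.36 for Cnpy2. No interaction was called for any of these genes. Reads of Gcs1, Canx and Cnpy2 were shared with other genes, so their values are uncertain.

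The promoters of Dnajc3, Canx and Hyou1 are shown because they hold ERSE or ERSE-II, as those of Hspa5 and Herpud1 do, while the genes moved in different directions with PE. Of the 131 further genes, 110 had a promoter entry and 7 of them held ERSE or ERSE-II.
Dnajc3 (chr15:102432514-102432572, plus strand), ERSE: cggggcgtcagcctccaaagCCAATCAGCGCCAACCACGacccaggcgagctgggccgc
Canx (chr10:35158049-35158107, minus strand), ERSE: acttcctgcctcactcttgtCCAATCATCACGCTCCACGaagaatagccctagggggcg
Hyou1 (chr8:53602674-53602724, plus strand), ERSE-II on the other strand: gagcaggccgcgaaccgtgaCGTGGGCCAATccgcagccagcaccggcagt
Hyou1 (chr8:53602774-53602824, plus strand), ERSE-II on the other strand: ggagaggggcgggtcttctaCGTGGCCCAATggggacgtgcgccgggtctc

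Of 25 further genes of ER-associated degradation, the process to which Herpud1 belongs, none was past a log2 fold change of 1 in any of the 4 comparisons, where 9.78% of all genes tested were with knockdown alone, 6.60% with PE alone, 11.6% with knockdown under PE and 10.5% with PE after knockdown. Knockdown raised 4 and lowered 7 without PE (22.8% and 26.4% of all genes) and raised 4 and lowered 6 with PE (29.2% and 28.1%). Ubxn4, which brings the segregase VCP to the ER membrane, rose by 0.41 (adjusted p = 9.43e-04) without PE and from 82.3 ± 1.31 to 138 ± 14.1 CPM (0.75, adjusted p = 6.30e-06) with PE. Man1b1, a mannosidase that marks glycoproteins for breakdown, fell by 0.61 (log2 fold change -0.61, adjusted p = 5.87e-06) without PE, and Ube2g2, a ubiquitin-conjugating enzyme, by 0.47 (log2 fold change -0.47, adjusted p = 5.60e-04). Nploc4 (0.27, adjusted p = 0.00568) rose without PE and Derl3 (0.62, adjusted p = 0.0335) with PE. Reads of both were shared with other genes, and the call of Derl3 was lost in 6 alternatives.

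PE raised 6 and lowered 4 of the 25 genes in control cells (24.0% and 25.7% of all genes), and raised 7 and lowered 4 after knockdown (30.7% and 29.3%). Edem1 and Edem3, mannosidase-like proteins that extract misfolded glycoproteins, rose in control cells by 0.54 (adjusted p = 6.79e-04) and 0.61 (adjusted p = 0.0236), and Edem3 rose after knockdown from 21.4 ± 3.0 to 40.3 ± 12.3 CPM (0.92, adjusted p = 0.00177). The rise of Edem3 in control cells was lost with limma on log2(FPKM + 0.1) (adjusted p = 0.0534) and without siNeg replicate 1 (adjusted p = 0.0972), siNeg PE replicate 2 (adjusted p = 0.0733) or siNeg PE replicate 3 (adjusted p = 0.0744). Ube2g2 fell with PE by 0.62 (log2 fold change -0.62, adjusted p = 1.08e-04) in control cells and by 0.57 (log2 fold change -0.57, adjusted p = 1.34e-04) after knockdown. Syvn1, the ubiquitin ligase that Herpud1 binds, fell after knockdown from 65.7 ± 1.79 to 51.7 ± 4.89 CPM with PE (-0.35, adjusted p = 0.00159). It was called lower in all 4 comparisons. No gene of this list had an interaction called by edgeR, where 1.73% of all genes tested were called higher and 1.88% lower.

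Of 18 sensors and transcription factors of the response, 17 were tested. Knockdown raised 4 and lowered 5 without PE, against 22.8% and 26.4% of all genes tested, and raised 5 and lowered 6 with PE, against 29.2% and 28.1%. In control cells PE raised 4 and lowered 4, against 24.0% and 25.7%, and after knockdown it raised 6 and lowered 5, against 30.7% and 29.3%. Mbtps1, the Golgi protease that makes the first cut in ATF6, was lower in every comparison, at 227 ± 2.99 CPM in siNeg, 168 ± 3.10 in siNeg PE, 174 ± 5.85 in siSlc39a2 alone and 118 ± 2.56 in siSlc39a2 PE. Atf6 itself rose with PE over the same samples. Eif2s1, the translation factor that PERK phosphorylates, went the other way, from 34.0 ± 1.60 CPM in siNeg to 49.8 ± 3.62, 48.2 ± 5.25 and 78.5 ± 4.59 CPM in siNeg PE, siSlc39a2 and siSlc39a2 PE, and was higher in all 4 comparisons.

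Among the same sensors and factors, Wfs1, an ER membrane protein of the stress response, fell after knockdown by 0.68 (log2 fold change -0.68, adjusted p = 3.44e-05) without and by 0.65 (log2 fold change -0.65, adjusted p = 4.46e-05) with PE. Nfyb, a subunit of the factor that binds CCAAT, had 12.1 ± 0.315 CPM in siNeg and 16.7 ± 2.26 CPM in siSlc39a2 (0.46, adjusted p = 0.00221). Mbtps2, which makes the second cut in ATF6, rose with PE after knockdown from 4.51 ± 0.683 to 8.06 ± 2.22 CPM (0.84, adjusted p = 0.00205). In control cells PE raised Creb3 (0.42, adjusted p = 2.13e-04) and lowered Creb3l1 (-0.46, adjusted p = 5.17e-04). Creb3 was called higher and Creb3l1 lower in all 4 comparisons. Atf4 was at 425 ± 9.15 CPM in siNeg, 406 ± 23.1 in siNeg PE, 560.1 ± 26.0 in siSlc39a2 alone and 401 ± 31.6 in siSlc39a2 PE, so it was highest in the group in which Ddit3 was highest, and its fall with PE after knockdown was -0.48 (adjusted p = 8.66e-05). Reads of Creb3 and Atf4 were shared with other genes, so their values are uncertain.

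The 19 targets of PERK, ATF4 and CHOP stand closest to Ddit3. Knockdown without PE raised 10 and lowered 3, where 22.8% of all genes tested were higher and 26.4% lower, with a median log2 fold change of 0.34 against -0.02 over all genes. PE after knockdown lowered 13 and raised 4, against 29.3% and 30.7%, with a median of -0.49 against 0.01. In control cells PE raised 4 and lowered 5, against 24.0% and 25.7%, with a median of -0.10 against -0.01. Knockdown under PE raised 6 and lowered 8, against 29.2% and 28.1%, with a median of 0.05 against 0.01. An interaction was called lower for 8 of the 19 and higher for none, against 1.88% and 1.73% of all genes.

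Atf3, a stress-induced transcription factor, was at 7.19 ± 0.896 CPM in siNeg, 7.0 ± 0.549 in siNeg PE, 33.4 ± 3.21 in siSlc39a2 alone and 24.5 ± 1.18 in siSlc39a2 PE, and knockdown raised it by 2.22 (adjusted p = 3.97e-09) without and 1.81 (adjusted p = 3.17e-08) with PE. Some of its reads were shared with another gene or genes. Casp12, a caspase of the ER membrane, had 1.75 ± 0.352, 1.69 ± 0.415, 5.93 ± 0.746 and 9.51 ± 2.58 CPM in the same order of groups, with knockdown changes of 1.76 (adjusted p = 6.08e-05) and 2.49 (adjusted p = 2.42e-06). Chac1, a glutathione-degrading enzyme downstream of ATF4, had 44.0 ± 2.07, 41.7 ± 3.86, 61.9 ± 5.79 and 31.4 ± 3.34 CPM, and its interaction was -0.90 (SE 0.14, adjusted p = 0.00330).

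Bcl2l11, which encodes the pro-apoptotic protein BIM, fell with PE from 62.4 ± 2.25 to 30.5 ± 4.68 CPM in control cells and from 51.2 ± 1.99 to 14.6 ± 0.922 CPM after knockdown (log2 fold changes -1.03, adjusted p = 6.33e-06, and -1.81, adjusted p = 4.28e-08). Ddit4, an inhibitor of mTORC1, fell from 101 ± 4.51 to 50.6 ± 4.89 CPM with PE after knockdown (adjusted p = 1.01e-05), and Map1lc3b, which marks autophagosomes, was lower after knockdown without PE by 0.74 (log2 fold change -0.74, adjusted p = 3.34e-06). Both genes were called lower in all 4 comparisons. For Ddit4 the call of knockdown without PE was lost without siNeg replicate 1 or without siSlc39a2 replicate 2 or 3. Of the 4 genes of the list raised by PE in control cells, those with the largest rises were Cebpg (0.64, adjusted p = 8.73e-05) and Ppp1r15b, a subunit of the phosphatase that reverses PERK (0.46, adjusted p = 0.00262).

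Of 38 genes of the translocon, signal peptidase and glycosylation, which bring new chains into the ER and add their glycans, PE after knockdown raised 24 and lowered 3, where 30.7% of all genes tested were higher and 29.3% lower, with a median log2 fold change of 0.26 against 0.01 over all genes. In control cells PE raised 12 and lowered 5, against 24.0% and 25.7%, with a median of 0.07 against -0.01. Ssr1, a subunit of the translocon-associated complex, went with PE from 117 ± 6.48 to 185 ± 17.4 CPM in control cells (0.67, adjusted p = 1.57e-04) and from 127 ± 13.2 to 263 ± 26.2 CPM after knockdown (1.06, adjusted p = 2.33e-06). Spcs3, a signal peptidase subunit, rose after knockdown from 2.86 ± 0.597 to 6.36 ± 1.51 CPM with PE (1.16, adjusted p = 3.83e-04). Kdelr1, a receptor that returns chaperones such as BiP to the ER, fell with PE by 0.40 (log2 fold change -0.40, adjusted p = 3.93e-04) in control cells and by 0.24 (log2 fold change -0.24, adjusted p = 0.00753) after knockdown.

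Knockdown without PE lowered 13 of these 38 genes and raised 5, against 26.4% and 22.8% of all genes tested, and with PE it raised 14 and lowered 8, against 29.2% and 28.1%. Sec11c, a signal peptidase catalytic subunit, rose without PE from 40.9 ± 2.87 to 59.0 ± 2.74 CPM (0.53, adjusted p = 1.20e-04), and Dad1, a subunit of the oligosaccharyltransferase, fell from 134 ± 15.2 to 91.0 ± 5.0 CPM (-0.56, adjusted p = 1.22e-04). Ssr3 was the gene of this list with the largest rise after knockdown, 0.80 (adjusted p = 6.92e-05) without and 1.06 (adjusted p = 5.21e-06) with PE, and Kdelr3 had the largest fall, -0.97 (adjusted p = 7.20e-07) without PE. Reads of Ssr3 and Kdelr3 were shared with other genes.

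**Figure D5:**
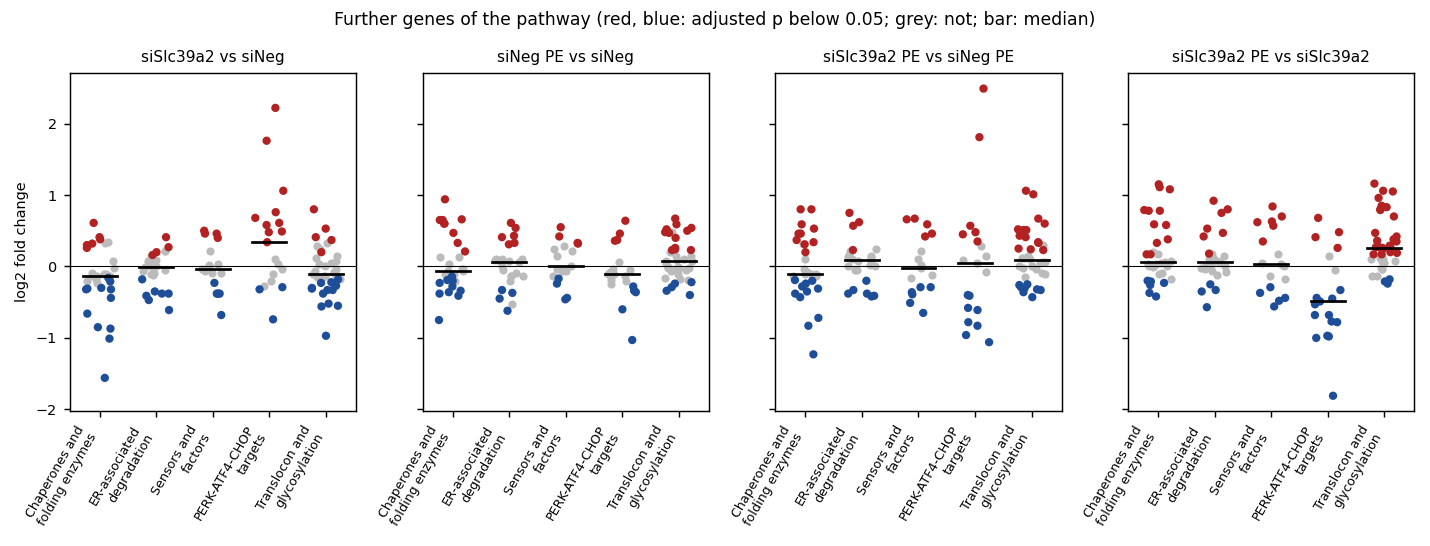
Log2 fold changes of the tested genes of the 5 pathway lists in the 4 comparisons, with 1 point per gene, coloured where the adjusted p from edgeR was below 0.05, and a bar at the median of each list. The targets of PERK, ATF4 and CHOP have a median of 0.34 after knockdown and of -0.49 with PE after knockdown, and the translocon list has a median of 0.26 with PE after knockdown.

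The genes whose log2 CPM followed each of the 10 most closely over the 12 samples were sought among those whose mean log2 CPM was over 1, by the root mean square difference after centring, and no gene of the set was among the 3 nearest of another. Nearest to Hspa5 were Ipmk, Rnf146 and Appbp2 (0.0834, 0.0906 and 0.0925 log2 units), and nearest to Hsp90b1 were Syncrip, Rps6ka3 and Tm9sf3 (0.0653, 0.0713 and 0.0736). Calr was closest to the unnamed gene BGIG10116_33261, Ankrd27 and Noc2l, Pdia4 to Arhgap17, Nolc1 and Zfp827, and Dnajb9 to Osbpl9, Anp32e and Ppid. Among the 3 genes nearest to Herpud1 were Slc6a17 and Irx3 (0.0568 and 0.0741), and Xbp1 was closest to Ncstn, Sox12 and Prpf19 and Atf6 to Kidins220, Herc1 and Ids. Ddit3, which varied most around its mean (root mean square 0.614), had the neighbours Cyp27a1, Rec114 and Kyat3 (0.113, 0.120 and 0.132), and Sdf2l1 was nearest to Fkbp11, Pgam5 and L3mbtl2. The measure is small for any genes that vary little, and the root mean square of log2 CPM around its own mean was 0.0888 for Sdf2l1, 0.131 for Pdia4, 0.185 for Xbp1 and 0.186 for Calr. Within the set, Hsp90b1 and Dnajb9, which varied by 0.612 and 0.596, lay 0.129 apart.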

How the data were processed

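RNA-seq of 12 NRVM samples in 4 groups was analysed from 2 deposited matrices. In the expected counts deposited by the authors, which are not normalized, reads matching several genes are shared (78.7% of values were whole, to a tolerance of 1e-06). The other matrix deposited by the authors holds FPKM values of the same genes. The submitters' processing notes name HISAT, Bowtie2 and the build Rnor_6.0. The counting program and the annotation are not given in the sources used here.

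With edgeR 4.0.16 under R 4.3.3, expected counts were rounded, 4516 low genes were removed by filterByExpr, library sizes were normalized by TMM, and all 4 groups entered 1 fit with 8 residual degrees of freedom. Intervals are at 95%. The alternatives were RLE size factors, DESeq2 1.42.0, no filter, a replicate block, limma 3.58.1 on quantile-normalized log2(FPKM + 1) and log2(FPKM + 0.1), fits of the 2 groups compared alone, and leaving out each sample. The fits were tested on simulated data. Within each group, no sample was a copy of another (chi-square per degree of freedom from 4.73 to 33.3), and samples of different groups were not compared in this way.

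The 10 genes, the pathway and marker lists, and the elements searched for were chosen with earlier results of these data known, so no list is independent evidence. Named genes are the 10, Slc39a2 and Nppb, up to 2 genes with the largest rise and up to 2 with the largest fall of each pathway list in each comparison, not all of which are printed, and the 3 nearest genes of each of the 10, of which 1 is not reported here. The promoters shown for pathway genes were chosen after their values were seen. Promoters came from RefSeq of GRCr8, a build other than that of the files, and were used for sequence only.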

Additional observations from a re-analysis of the deposited data

Results flagged for a closer look

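The effect of PE differed between control and knockdown cells, by the interaction test of edgeR, for Herpud1, with a log2 difference of -0.54 (adjusted p = 0.0447). The same test was passed by 13 of the 130 tested genes of the pathway lists, where 1.73% of all genes tested were called higher and 1.88% lower, and those named here are the ones with the largest values of each list. Chac1 had -0.90 (adjusted p = 0.00330) and Bcl2l11 had -0.78 (adjusted p = 0.00745). Atf4 had -0.41 (adjusted p = 0.0344), with shared reads, and Nfya, a subunit of the CCAAT-binding factor, had -0.41 (adjusted p = 0.0273). In the other direction, Kdelr3 had 0.63 (adjusted p = 0.00762) and Pdia5 had 0.54 (adjusted p = 0.0470), both with shared reads, and Serpinh1, the collagen chaperone, had 0.40 (adjusted p = 0.0115). When a sample was left out, the calls of Atf4 and Nfya were each lost in 8 of 12 fits, that of Pdia5 in 10 and that of Serpinh1 in 1, without siSlc39a2 PE replicate 1 (adjusted p = 0.0612), and limma on log2(FPKM + 1) and log2(FPKM + 0.1) also lost Serpinh1 (adjusted p = 0.0783 and 0.119). Limma on log2(FPKM + 0.1) lost Kdelr3 (adjusted p = 0.0675) and Pdia5 (adjusted p = 0.0712), and Pdia5 was lost with RLE size factors (adjusted p = 0.0517) and with no filter on low counts (adjusted p = 0.0850) as well. Groups of 3 samples were too small for a test of single outlying samples.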

How the results depend on the processing

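No change of the 10 genes that was called reversed under any of the 19 alternatives. Of 940 values of the 10 genes under the alternatives, 895 kept their direction and side of the threshold or changed sign without a call (41 values of 6 genes), 27 lost a call and 18 gained one. Of 1834 values of the other genes named, 1774 were unchanged in this sense and 60 lost a call. The number of the 10 genes with an interaction called was 1, and it was 2 with DESeq2, with no filter on low counts and with limma on log2(FPKM + 1) and on log2(FPKM + 0.1), 3 with a replicate block, and 0 to 2 when a sample was left out. The number called for PE in control cells was 7, and 4 to 7 when a sample was left out. The number past a log2 fold change of 1 for knockdown with PE was 2, and it was 1 with a replicate block and with limma at either pseudocount, and 0 to 3 when a sample was left out. For PE after knockdown it was 3, and 1 to 3 when a sample was left out. Interactions called among the pathway lists were 13, 23 with a replicate block and 6 to 13 when a sample was left out. The causes of these differences were not tested. The replicate numbers of the labels were not taken to pair samples in the main fit. Deviations of same-numbered samples from their group means correlated over 0.1 in 8 of 18 pairs (mean 0.0906, range -0.0904 to 0.320). Those of differently numbered samples did so in 5 of 36 pairs (mean -0.0452, range -0.249 to 0.236). Deviations within a group cancel out, so the mean of differently numbered pairs is largely fixed by that of same-numbered pairs. It is not a second observation. The same-numbered pairs over 0.1 were all of replicate 1 or 3, and none was of replicate 2. Whether the numbers mark samples handled together was not tested. With the block, the Hsp90b1 interaction (0.57, adjusted p = 0.0336) and the knockdown changes of Hsp90b1 (0.41, adjusted p = 0.00481) and Pdia4 (0.14, adjusted p = 0.0314) without PE and of Atf6 (0.26, adjusted p = 0.0215) with PE were called.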

Other observations

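Over the whole genome, 26 tested genes had ERSE or ERSE-II in the promoter window, 5 of them among the 10 genes described. This set was formed after the values of the 10 genes were seen, so its counts are a description only. Without those 5, knockdown under PE raised 10 of 21 genes (47.6%) and lowered 6 (28.6%), where 29.9% of the 10832 tested genes with a promoter entry were higher and 28.6% lower. Of the 21, 7 were genes of the pathway lists, and all of these but Hyou1, which fell, were among the genes raised in this comparison. PE in control cells raised 10 (47.6%) and lowered 4 (19.0%) of the 21, against 24.4% and 26.3%. Knockdown without PE raised 6 (28.6%) and lowered 5 (23.8%), against 23.4% and 26.8%. Members of this set that were not on the pathway lists also moved. Cdc45, a replication factor, rose with PE by 1.01 (adjusted p = 4.66e-06) in control cells by edgeR, and Nucb1, a calcium-binding protein of the Golgi, fell after knockdown by 0.52 (log2 fold change -0.52, adjusted p = 1.36e-05). These 2 genes were named after their values were seen.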
